A study of Homo sapiens with 6 samples.

Results

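The peroxiredoxins and the thioredoxin system were followed as 10 listed genes: PRDX1, PRDX2, PRDX3, PRDX4, PRDX5, PRDX6, TXN, TXN2, TXNRD1 and SRXN1. A gene was taken where a transcript cluster of the array carried its symbol and no other, and the brightest such cluster over the arrays stood for it. This gave 8 of the 10 genes, among 22465 genes measured in the same way. PRDX5 had no cluster under its symbol, and the cluster of SRXN1 also carried the symbol SCRT2, so neither was analysed here. Each of the 8 genes rested on 1 cluster, and all 8 lay above background on all 6 arrays. Background here is a log2 value of 5.66, the highest reading of the background probe sets on any array, and a gene counts as above it where at least 3 arrays exceed it. The threshold is strict, since it was set by control replicate 1, and background peaked at 4.68 to 5.14 elsewhere.

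RNA of AC16 cells was measured on 6 Affymetrix arrays. AC16 is an established human line made by fusing adult ventricular heart cells with virus-transformed fibroblasts. It carries no targeted genetic change that the labels name. The PM2.5 group was exposed to fine particulate matter, airborne particles up to 2.5 µm across, at 50 µg/mL for 24 h (n = 3), and the labels call the other group only control (n = 3). The titles speak of biological replicates of this 1 line but do not say that each was its own culture. The p-values therefore cover only the variation among these 6 samples, which may in part be technical. Of 9 measured cardiomyocyte markers, 1 (MYL2) lay above background, and MYH6, MYH7, TNNI3, ACTN2, NPPA, NKX2-5, GATA4 and RYR2 did not. Of 7 fibroblast markers, 3 lay above background (COL1A1, COL1A2 and VIM). So did 2 of 4 smooth muscle markers (TAGLN and CNN1) and 2 of 4 epithelial markers (KRT8 and KRT18). Among leukocyte markers 1 of 4 did (CD68), and among endothelial markers 0 of 4. In such bulk RNA, fewer cells of a type and less RNA per cell cannot be told apart.

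Peroxiredoxins are abundant enzymes that reduce hydrogen peroxide with a reactive cysteine. The oxidised cysteine is restored by thioredoxin, thioredoxin is restored by thioredoxin reductase, and the electrons come from NADPH. Sulfiredoxin, the product of SRXN1, rescues peroxiredoxins that too much peroxide has over-oxidised. In heart cells, which respire heavily, the mitochondrial arm of the pathway handles peroxide released by the respiratory chain. TXNRD1, TXN, PRDX1 and SRXN1 are textbook targets of NRF2, the transcription factor that binds antioxidant response elements.

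RefSeq promoter windows of GRCh38.p14, from 250 bases before a transcription start, were at hand for 5 of the 8 genes: PRDX2, PRDX3, PRDX4, TXN and, with 2 starts, TXNRD1. The core of the antioxidant response element, TGACNNNGC on either strand, occurred in both TXNRD1 windows and in none of the 4 windows of the other genes. It occurred in 13.3% of 35116 promoter windows of the same length. The matches are shown because TXNRD1 is the gene of the pathway whose reading by NRF2 is best known. Each line gives 30 bases, 5′ to 3′ in the direction of the gene, with the match in capitals. The first match begins 99 bases before the upstream start (chr12:104215670-104215699, plus strand), the second 8 bases before it (chr12:104215761-104215790, plus strand) and the third 102 bases before the downstream start (chr12:104286920-104286949, plus strand).
TXNRD1 upstream start, first match: acacgggctaTGACTTCGCtgttgtcaccg
TXNRD1 upstream start, second match: gcgtccttcgGCTCCGTCAgttcccacagg
TXNRD1 downstream start: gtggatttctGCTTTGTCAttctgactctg

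The promoters of TXN and PRDX3 are shown as well, because these genes and TXNRD1 ranged furthest over the arrays. The TXN window held the TATA sequence, TATAAA on either strand, as 2 overlapping matches about 30 bases before the start (chr9:110256518-110256547, minus strand). That sequence occurred in 11.5% of all windows and in 1 of the 6 windows of these genes. The PRDX3 window held the GC box, GGGCGG on either strand, with 2 of its 3 matches in the last 30 bases before the start (chr10:119178813-119178842, minus strand). The GC box occurred in all 6 windows and in 45% of all windows. A match describes letters, not binding, and no binding was measured here.
TXN, TATA: cgtgccagTTTATAAAgggagagagcaagc
PRDX3, GC boxes: aggccCCGCCCctgcgtctctgcCCGCCCc

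Averaged over 8 spike-in probe sets, the arrays formed 2 sets, which no label names. The high set, at 10.7 to 10.9, held controls 1 and 2 with the first PM2.5 array. The low set, at 10.2 to 10.3, held control 3 with the other PM2.5 arrays. Each set holds both groups, so the treatment can be compared within a set, as 1 PM2.5 array against 2 controls or 2 against 1. The value with the set as a block is given beside each difference of PM2.5 minus control in the 8 genes.

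After 24 h of PM2.5 no gene of the pathway changed by the test. Of the 8 genes, 5 had a higher and 3 a lower mean, and 0 passed limma's moderated linear-model test, fitted over all genes, at a Benjamini-Hochberg adjusted p under 0.05 (adjusted p = 1 for each). This threshold was passed by 0% of all 22465 genes. An unadjusted p under 0.05 was reached by 0 of the 8 genes and by 2.11% of all genes. The PM2.5 and control arrays overlapped for all 8 genes, whereas they did not overlap for 3.28% of the 4150 genes above background. The median log2 difference, PM2.5 minus control, was 0.10 over the 8 genes and -0.01 over all genes. It was 0.01 over genes above background and 0.03 over the protein-coding genes among them. Every level below is a log2 RMA value, and every difference is on the log2 scale.

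PRDX1 is the main cytosolic peroxiredoxin. It read 14.06, 14.82 and 14.82 after PM2.5 (replicates 1, 2 and 3) and 14.36, 14.64 and 14.82 in controls. The lowest array was PM2.5 replicate 1, and the other PM2.5 arrays stood level with control replicate 3. PM2.5 replicate 3 and control replicate 3 held exactly the same deposited value, and the 3 arrays of the low set had an SD of 0.00082, so a difference among them may be understated. The means were 14.6 ± 0.440 and 14.6 ± 0.234 (SD, n = 3 each), a difference of -0.039 with a 95% interval of -0.63 to 0.56. When blocked by array set it was -0.22.

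PRDX2, a second cytosolic peroxiredoxin best known from red blood cells, had the smallest range of the 8 genes over the arrays, 0.26. It read 7.50, 7.40 and 7.55 after PM2.5 and 7.40, 7.43 and 7.65 in controls. The difference was -0.0082 with an interval of -0.36 to 0.34, the narrowest of the 8 genes, and -0.044 in the blocked fit.

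PRDX3 is the peroxiredoxin of the mitochondrial matrix. It read 6.94, 8.05 and 7.87 after PM2.5 and 6.90, 7.06 and 8.68 in controls. Within each group the arrays of the low set stood above those of the high set, and the single highest array was a control. The means were 7.62 ± 0.593 and 7.55 ± 0.980 (SD, n = 3 each). The difference of 0.07 had an interval of -1.27 to 1.42, the widest of the 8 genes. It turned to -0.38 (-0.84 to 0.08) when blocked by array set, and to 0.64 without control replicate 3.

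PRDX4, the peroxiredoxin of the endoplasmic reticulum, read 7.20, 7.30 and 7.44 after PM2.5 and 6.95, 6.78 and 7.56 in controls. All 3 PM2.5 arrays lay above control replicates 1 and 2 and below control replicate 3. The means were 7.31 ± 0.122 and 7.10 ± 0.409 (SD, n = 3 each), a difference of 0.22 with an interval of -0.34 to 0.78. When blocked by array set it was 0.07.

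PRDX6 uses glutathione in place of thioredoxin and also has a phospholipase activity. It read 7.04, 7.35 and 7.44 after PM2.5 and 6.90, 6.86 and 7.68 in controls, the same placement of the arrays as for PRDX4. The difference was 0.13 with an interval of -0.51 to 0.77, and -0.07 in the blocked fit.

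TXN encodes the cytosolic thioredoxin, which reduces peroxiredoxins and many other proteins. It read 11.2, 12.4 and 11.8 after PM2.5 and 10.98, 11.5 and 11.9 in controls. The highest array was PM2.5 replicate 2 and the lowest control replicate 1. The means were 11.8 ± 0.614 and 11.4 ± 0.450 (SD, n = 3 each). The difference was 0.37 (1.29-fold), with an interval of -0.57 to 1.31 and an exact two-sided permutation p of 0.5, where 3 against 3 arrays cannot go below 0.1. In the fit without a block it was the largest of the 8 genes, and it was 0.11 when blocked by array set, where that of PRDX3 was the largest in size. Without PM2.5 replicate 2 the difference was 0.05, and without PM2.5 replicate 1 it was 0.67.

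TXN2, the mitochondrial thioredoxin that serves PRDX3, read 8.04, 7.94 and 8.20 after PM2.5 and 8.18, 7.85 and 8.32 in controls. The order of the arrays followed neither the group nor the array set. The difference was -0.06 with an interval of -0.52 to 0.40, and -0.11 in the blocked fit.

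TXNRD1, the cytosolic selenium-containing reductase that passes electrons from NADPH to thioredoxin, read 6.71, 7.80 and 7.58 after PM2.5 and 6.82, 6.76 and 7.94 in controls. The 3 high-set arrays lay within 6.71 to 6.82 and the 3 low-set arrays within 7.58 to 7.94, and in each set the PM2.5 arrays were the lower ones. The means were 7.36 ± 0.579 and 7.17 ± 0.662 (SD, n = 3 each). The difference of 0.19 had an interval of -0.85 to 1.23. When blocked by array set it was -0.16 (-0.43 to 0.10), and without control replicate 3 it was 0.57.

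**Figure D1:**
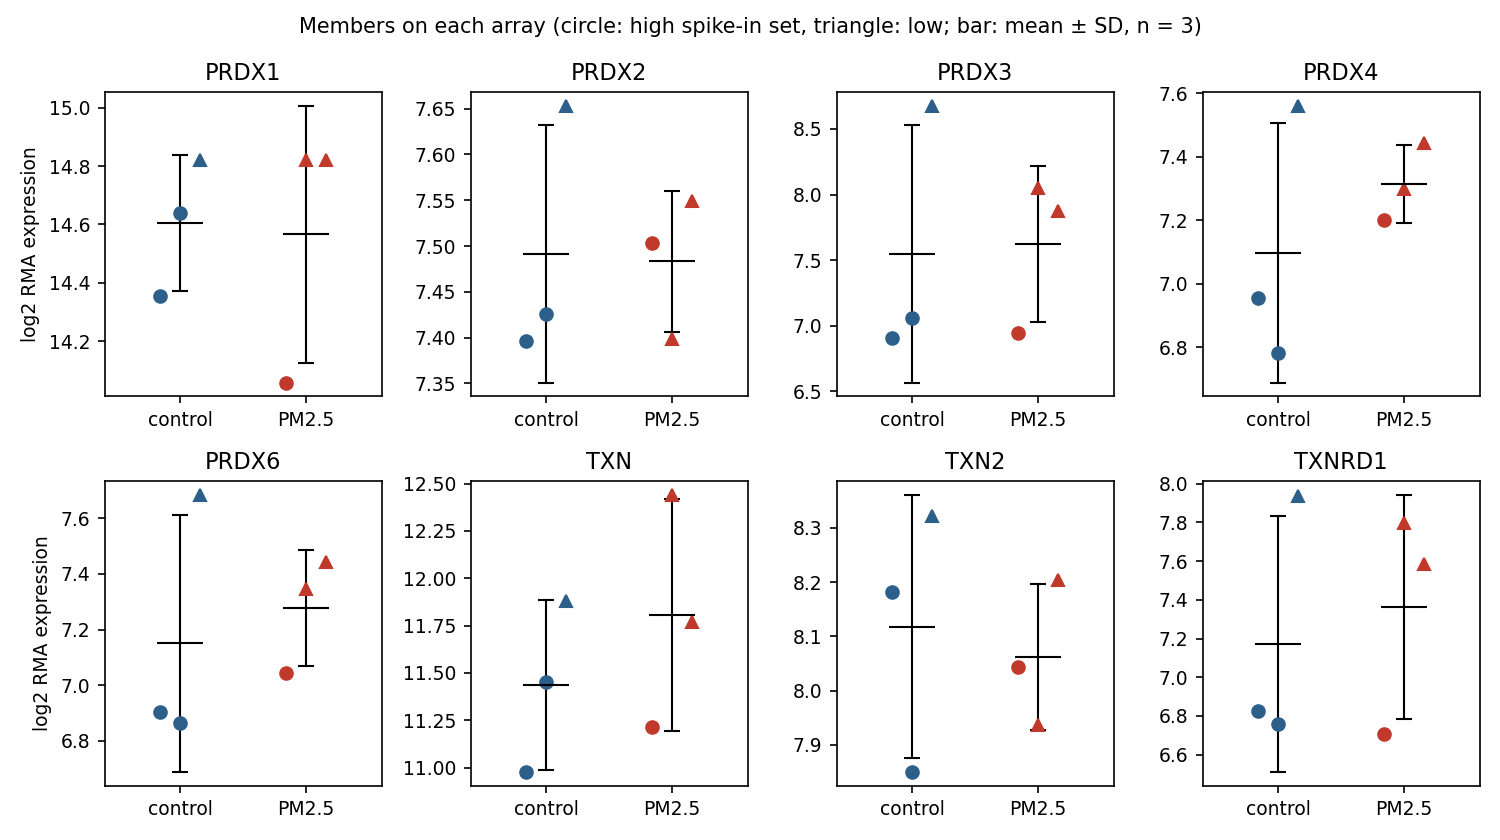
Log2 RMA expression (vertical axes, a separate scale for each gene) of the 8 genes on each of 3 control and 3 PM2.5 arrays; circles are the high spike-in set, triangles the low set, bars the mean ± SD. For PRDX3 and TXNRD1 the triangles of both groups stand above all circles, with control replicate 3 highest at 8.68 and 7.94, and for no gene do the groups separate.

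When blocked by array set, 2 of the 8 genes had a higher and 6 a lower fitted level after PM2.5, with a median of -0.09. Most genes leaned the same way: 2656 of the 4150 genes above background were lower in this fit, with a median of -0.05. None of the 8 genes passed limma's test (adjusted p between 0.868 and 0.987), as was true of all genes (0% called). The block narrowed the interval of TXNRD1 from -0.85 to 1.23 down to -0.43 to 0.10, so its upper bound was a 1.07-fold rise. PRDX1 had an interval of -0.55 to 0.11, and TXN, the gene with the widest interval in this fit, of -0.50 to 0.72.

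**Figure D2:**
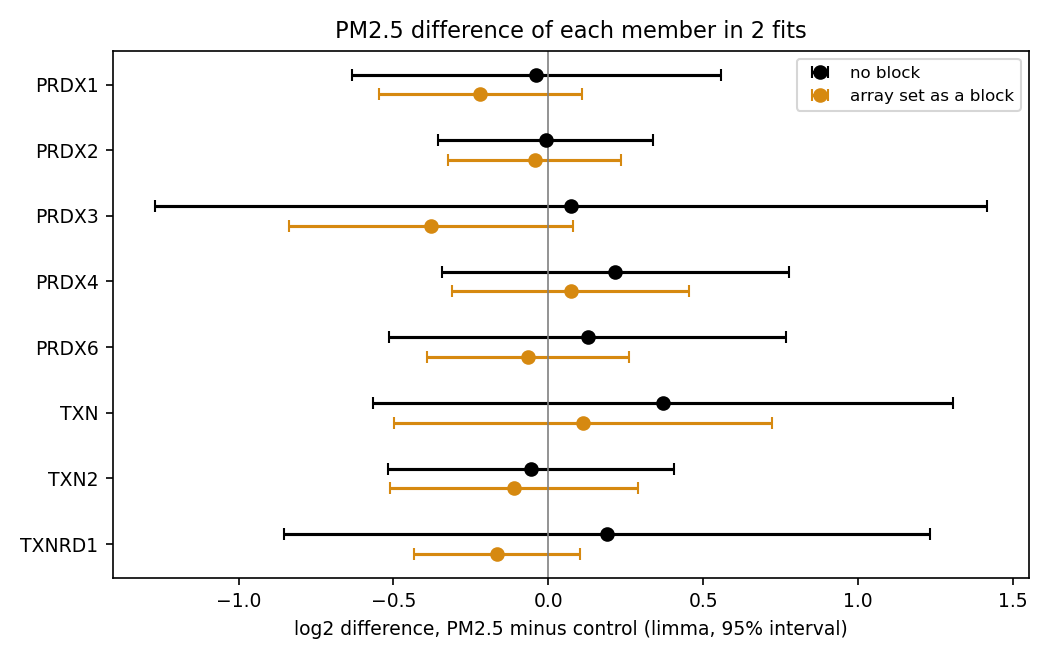
Fitted log2 difference, PM2.5 minus control (horizontal axis), of each gene with its 95% limma interval, without a block (black) and when blocked by array set (orange). All 16 intervals include 0, and the point moves below 0 under the block for PRDX3, PRDX6 and TXNRD1.

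Within the low set, control replicate 3 lay above both PM2.5 arrays for 6 of the 8 genes (PRDX2, PRDX3, PRDX4, PRDX6, TXN2 and TXNRD1). In that set the mean over protein-coding genes above background was also highest on control replicate 3, at 7.58 against 7.43 and 7.39. The share of all genes placed in this way was not counted. Within the high set, PM2.5 replicate 1 lay above both controls for 3 genes (PRDX2, PRDX4 and PRDX6) and below both for 2 (PRDX1 and TXNRD1). PRDX4 was 0.33 higher after PM2.5 in the high set and lower in the low set, at -0.19. PRDX6 stood at 0.16 and -0.29, and PRDX2 at 0.09 and -0.18. PRDX3 (-0.040 and -0.72) and TXNRD1 (-0.085 and -0.24) were lower after PM2.5 in both sets. TXN stood at -0.0016 and 0.23, PRDX1 at -0.44 and 0.00071 and TXN2 at 0.03 and -0.25. These values rest on 1 array against 2 and carry no error. For the high set, too, the share of all genes placed in each way was not counted. The counts of either set are therefore not read as particular to the 8 genes.

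**Figure D3:**
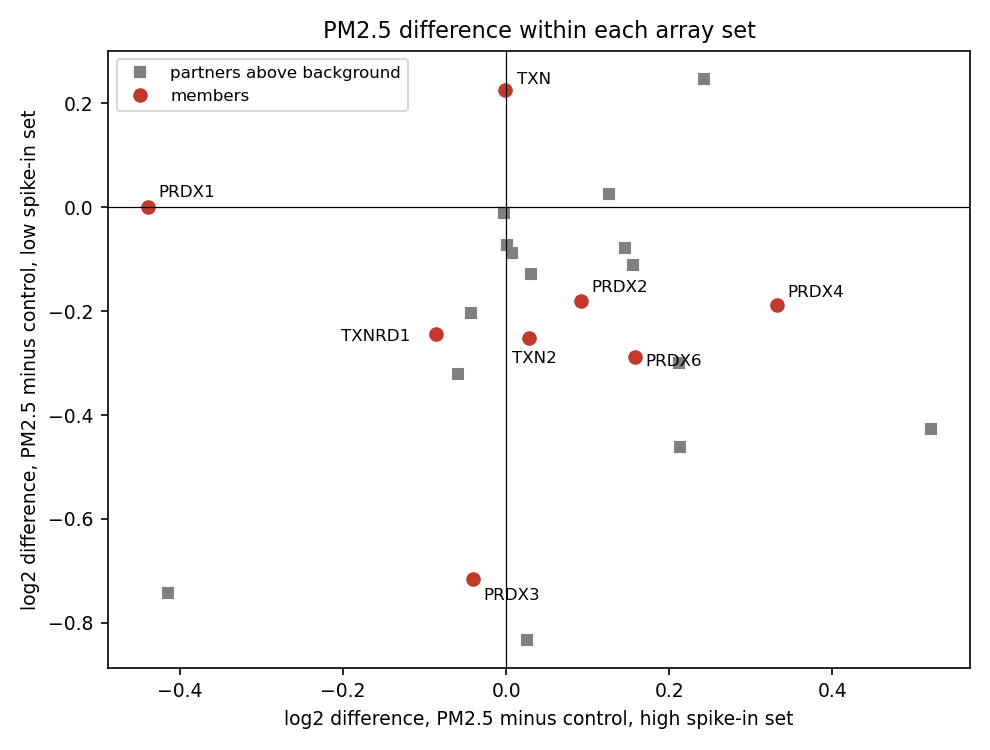
Log2 difference, PM2.5 minus control, among the high-set arrays (horizontal axis) against that among the low-set arrays (vertical axis), for the 8 genes (red circles) and for 15 partner genes above background (grey squares). No red circle lies above 0 on both axes, and PRDX3 and TXNRD1 lie below 0 on both.

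For all 8 genes the difference between the array sets was larger in absolute size than that between the groups, a contrast that was not itself tested. In a fit with group and array set as terms, PRDX3 was 1.35 higher in the low set (SE 0.18, 2.56-fold, limma adjusted p = 0.0277) and TXNRD1 1.06 higher (SE 0.11, 2.09-fold, limma adjusted p = 0.0218). These 2 of the 8 genes passed. In the same fit 5.4% of all genes and 20.4% of genes above background passed in this direction, so the count is near that of genes above background. In a fit of the genes above background, 4 of the 8 passed (PRDX1 and PRDX6 besides), where 34.6% of those genes did. All 3 low-set arrays lay above all 3 high-set arrays for 6 of the 8 genes, and for 45.3% of genes above background. The same held for 1803 of the 3407 protein-coding genes above background. A gene could count as above background through the 3 low-set arrays alone, which can raise the shares given here for such genes. The 8 genes lay above it on all 6 arrays, and the share over genes that did so was not counted.

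The remaining set differences were not called over all genes in that fit. They were 0.54 for PRDX1, 0.43 for PRDX4, 0.58 for PRDX6 and 0.78 for TXN, with limma adjusted p between 0.0581 and 0.136. Over the same 22465 genes PRDX1 passed under quantile normalization, at 1.17 (limma adjusted p = 0.0161). PRDX6 passed with centred arrays (limma adjusted p = 0.0441) and without an intensity trend (limma adjusted p = 0.0472). PRDX4 stood at 0.16 under quantile normalization. PRDX2 (0.11, interval -0.17 to 0.39) and TXN2 (0.17, interval -0.23 to 0.57) were the 2 genes whose sets overlapped, and their sign turned under quantile normalization (-0.20 and -0.16). Of the mitochondrial pair, PRDX3 ranged over 1.77 across the arrays and TXN2 over 0.47.

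**Figure D4:**
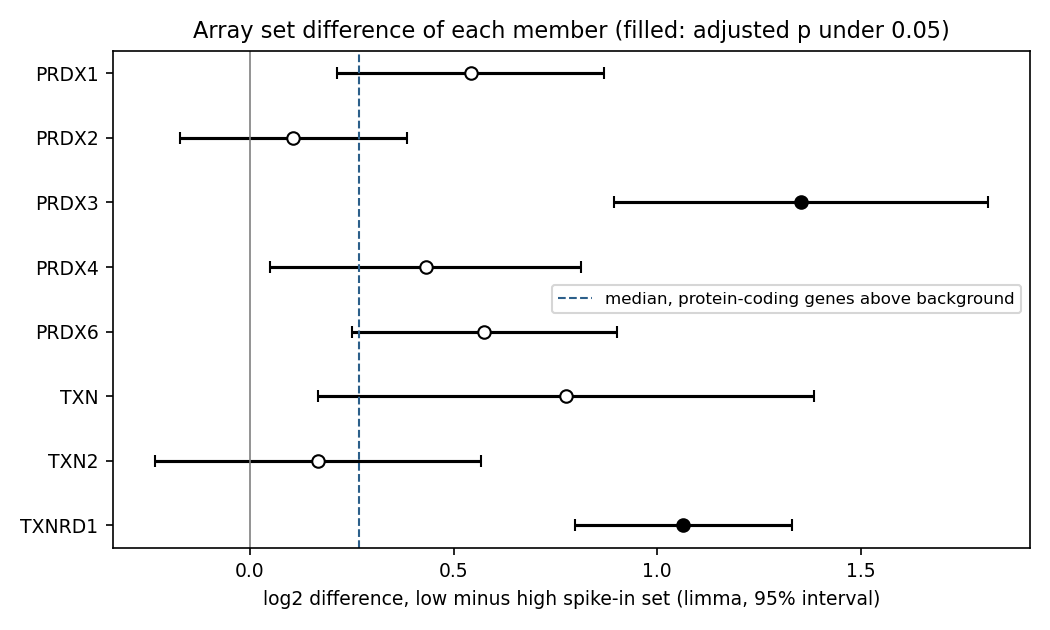
Log2 difference, low minus high spike-in set (horizontal axis), of each gene with its 95% limma interval; filled points passed at an adjusted p under 0.05, and the dashed line is the median of protein-coding genes above background. PRDX3 and TXNRD1, at 1.35 and 1.06, have intervals wholly to the right of that median of 0.27, whereas those of PRDX2 and TXN2 include both it and 0.

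The set difference varied in size and sign between RNA classes. Its median was 0.56 over the 8 genes, 0.27 over 3407 protein-coding genes above background and -1.63 over 136 small nucleolar RNA genes above background. The part of RNA composition or hybridisation in the levels of PRDX3 and TXNRD1 was not tested. Both calls were lost in most fits that left out 1 array. Such fits also have fewer arrays to estimate the error, and whether a particular array mattered was not tested. Without PM2.5 replicate 1, PM2.5 replicate 2, control replicate 1 or control replicate 3, 0 of the 8 genes passed, and without control replicate 2 only TXNRD1 did. The size held in these fits: PRDX3 stayed between 1.02 and 1.69, and TXNRD1 between 0.99 and 1.14.

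Among themselves, the 8 genes were compared by the root mean square difference between their gene-centred log2 values over the 6 arrays. PRDX4 and PRDX6 were closest, at 0.092, followed by PRDX2 and TXN2 at 0.116. PRDX3 and TXNRD1 stood 0.203 apart, and PRDX2 and PRDX3 were the most distant pair at 0.606. By the same measure, the genes above background nearest to TXNRD1 were CCND1, which encodes cyclin D1, CAPN2, a calpain protease subunit, and LTAP1, at 0.0586, 0.0590 and 0.0627. The median over the 4149 genes compared was 0.453. CCND1 read 7.06, 8.25 and 8.003 after PM2.5 and 7.32, 7.20 and 8.47 in controls, high on the same 3 arrays as TXNRD1. These are the low-set arrays, and the set differences of CCND1, CAPN2 and LTAP1 were 1.14, 1.17 and 1.04, beside 1.06 for TXNRD1. Likeness apart from the array set was not tested. The genes nearest to PRDX1 were TMEM60, RPL26, a ribosomal protein gene, and MRPL15, a mitochondrial ribosomal protein gene, at 0.0755, 0.0995 and 0.104. TMEM60 exceeded the background threshold on 3 arrays only, those of the low set, where it read 5.67 to 5.74. On the high-set arrays TMEM60 read 5.13 to 5.50. It was therefore among the genes compared only through the set in which it was high. For PRDX1, too, likeness apart from the array set was not tested.

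Partners of the system were taken from a list of 26 genes, of which 24 were measured and 15 lay above background. They include other thioredoxin-fold proteins, glutaredoxins, sestrins, methionine sulfoxide reductases and enzymes that draw on thioredoxin or glutathione. After PM2.5, 0 of the 24 passed limma's test in either direction (14 higher, 10 lower), with a median log2 difference of 0.03. When blocked by array set 0 passed as well.

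GSR, glutathione reductase, which keeps the parallel glutathione pathway reduced, read 10.7, 12.3 and 12.1 after PM2.5 and 10.3, 9.97 and 12.6 in controls. The high values were again those of the low set. Its PM2.5 difference was 0.71 (interval -1.25 to 2.67) and 0.05 once the set was a block. MSRB2, a mitochondrial methionine sulfoxide reductase, read 7.11, 7.44 and 7.06 after PM2.5 and 6.93, 6.80 and 7.01 in controls. It was the 1 of 15 partners above background whose groups did not overlap, as was true of 3.28% of all 4150 genes above background. Its difference was 0.29 (interval -0.08 to 0.67, limma adjusted p = 1), and it was 0.24 among the high-set and 0.25 among the low-set arrays.

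MSRB1, a selenium-containing reductase of the same kind, stood at 7.73 ± 0.0108 against 7.88 ± 0.170 (SD, n = 3 each), with overlap. TXNDC5, a thioredoxin-domain protein of the endoplasmic reticulum, stood at 6.29 ± 0.374 against 6.03 ± 0.672. TXNRD2, the mitochondrial reductase that serves TXN2, exceeded 5.66 on 1 array, and the highest background probe set of its own array on all 6, and read 5.57 ± 0.0674 against 5.59 ± 0.0897. TXNIP, the thioredoxin-binding protein that inhibits it, and GLRX, the cytosolic glutaredoxin, lay within background on every array. TXNIP read 4.005 ± 0.109 against 3.93 ± 0.0332, and GLRX 4.02 ± 0.0197 against 4.02 ± 0.135.

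Between the array sets, 7 of the 24 partners were higher in the low set by limma's test and 0 lower. Of all 22465 genes, 5.4% passed in this direction. All 7 were among the 15 partners above background, and 20.4% of the 4150 genes above background passed in this direction. The 7 were TXNL1, TXNDC5, TXNDC12, GSR, RRM2, ERO1A and PDIA6, named after their values were seen. GSR had a set difference of 1.99 (limma adjusted p = 0.0275) and ERO1A, which oxidises disulfide isomerases of the endoplasmic reticulum, of 1.66 (limma adjusted p = 0.0366). NFE2L2, the gene of NRF2, stayed under the threshold of 5.66 on every array but exceeded the highest background probe set of its own array on 3 of 6. It read 5.06 ± 0.0394 after PM2.5 and 5.03 ± 0.0117 in controls. KEAP1, which marks NRF2 for degradation, read 7.67 ± 0.0180 and 7.70 ± 0.0823. NRF2 is controlled largely at the protein level, which these arrays do not read.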

How the data were processed

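The authors deposited log2 values from RMA, a tool named in the submitters' processing notes. Its version and the array's genome build are not given in the sources used here. RMA summarises probes after fitting the arrays to a common distribution, which can compress differences of very bright genes. Of 67528 transcript clusters, 23781 carried 1 gene symbol in the platform annotation, and the brightest cluster stood for each of 22465 genes. A gene was above background where it exceeded 5.66, the highest of 23 background probe sets, on at least 3 arrays. limma 3.58.1 in R 4.3.3 (lmFit, eBayes with an intensity trend) tested PM2.5 minus control and, with group and array set as terms, low minus high set. Tests were two-sided with Benjamini-Hochberg adjustment over all genes at 0.05. The code was tested on simulated data. Arrays have no read depth, and their number limits the precision. The members, lists, tests and alternatives were chosen with earlier results of these data known. Named by rule were the members, the 4 partners above background with the lowest p, TXNRD2, TXNIP, GLRX, GSR, NFE2L2, KEAP1 and the genes nearest to TXNRD1 and PRDX1.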

Additional observations from a re-analysis of the deposited data

How the results depend on the processing

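Under all 16 alternatives to the PM2.5 comparison, 6 of which dropped 1 array each, limma called 0 genes, 0 of the 8 members and 0 partners. An unadjusted p under 0.05 was reached by as few as 35 genes, in the fit of only the 4150 genes above background. It was reached by as many as 6517 of 22465 genes with array weights, where a weight of 6.03 fell on control replicate 1. The lowest adjusted p of a member was 0.113. Of 128 values of single members, 23 turned sign, none of them called, and the cause was not tested. Array weights raised PRDX3 to 0.82, TXN to 0.85, TXNRD1 to 0.67 and PRDX6 to 0.43, above the range that leaving out 1 array gave for each. The sign turned for PRDX2 with centred arrays (0.012), PRDX1 with quantile normalization (0.31), PRDX1 and PRDX2 with array weights (0.32 and 0.091), and PRDX3, PRDX6 and TXNRD1 when blocked by array set (-0.38, -0.065 and -0.16, the same among genes above background, a fit chosen after seeing the data). Leaving out 1 array gave -0.17 to 0.22 for PRDX1, -0.056 to 0.073 for PRDX2, -0.25 to 0.64 for PRDX3, -0.017 to 0.39 for PRDX6, -0.19 to 0.045 for TXN2 and -0.027 to 0.57 for TXNRD1. PRDX4 (0.057 to 0.45) and TXN (0.054 to 0.67) kept their sign.

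The 2 members called between array sets became 3 with centred arrays, 3 with quantile normalization and 3 without an intensity trend, each over all genes. They became 4 without the dimmest 40% of genes and 4 among genes above background, where fewer genes were tested, and 0 to 2 without 1 array, a choice made after seeing the data. Whether replicate numbers pair the arrays could not be decided. Deviations of same-numbered arrays correlated at 0.78, -0.65 and 0.77 (replicates 1, 2 and 3) over 4150 genes. Both replicate 1 arrays were in the high set and both replicate 3 arrays in the low set, whereas the replicate 2 arrays were split. Pairing and array set therefore cannot be told apart in these correlations. With the replicate number as a block 0 members passed, and TXN differed by 0.37 (SE 0.28).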
